A study of Homo sapiens with 18 samples.

Results

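The genes described here are 10 genes of serine synthesis, mitochondrial one-carbon metabolism and the stress response run by the transcription factor ATF4: PHGDH, PSAT1, PSPH, SHMT2, MTHFD2, ASNS, CHAC1, TRIB3, DDIT3 and ATF4. They were taken by symbol from a table of 19849 genes, and all 10 were found in it, each read by 1 probe set. No filter on low values was applied, so all 10 entered every comparison. The arrays compared parental cells of the human lung cancer lines A549, HCC827 and NCI-H358 with mesenchymal derivatives of the same lines, with 3 arrays in each of the 6 groups and 18 in all. The mesenchymal cells (labelled EMT, for epithelial-mesenchymal transition) had been grown for 3 weeks with TGFβ, a cytokine that induces EMT, at 2 ng/ml, and were moved to medium without it on the day before lysis. The time of 3 weeks is that of the labels, whereas the methods of the study give a range that depended on the line. All groups grew in RPMI1640 with 10% serum and 4 mM glutamine, and the labels do not say separately whether parental cells had the same change of medium. RPMI1640 medium itself contains serine and asparagine. Each line is a single established line, and the 3 samples of a group were made at the same time, so the p values below measure the spread between such samples.

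PHGDH, PSAT1 and PSPH are the 3 successive enzymes that turn the glycolytic intermediate 3-phosphoglycerate into serine. SHMT2 then moves a carbon unit of serine onto folate in the mitochondrion, and MTHFD2 oxidizes that folate on the way to formate, which feeds purine and thymidylate synthesis. ATF4 is made mainly by translation: when amino acids run short or the endoplasmic reticulum is stressed, kinases phosphorylate the initiation factor eIF2, and ATF4 mRNA is then translated more. ATF4 protein binds C/EBP-ATF response elements and raises genes for amino acid synthesis (ASNS, PHGDH, PSAT1, SHMT2, MTHFD2) and for the stress response itself (DDIT3, TRIB3, CHAC1). The mRNA of ATF4 is therefore a poor guide to its protein, which arrays do not measure.

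Because ATF4 binds DNA, the promoters of the genes in this set were searched for TGATGNAA, the core of the C/EBP-ATF response element, on both strands, in RefSeq windows of the GRCh38.p14 build that run from 250 bases before to 50 bases after each annotated start. No other motif was searched. Windows were listed for 8 of the 10 genes, SHMT2 and PSPH being without an entry, and 2 of the 8 held the motif, ASNS and CHAC1. A gene may have several windows: the 8 genes had 13, of which 2 held the motif, the second window of ASNS being without it. Among all 35116 windows of the same length, 1270 (3.62%) held it. The 250 bases before the start are shown for these 2 genes, and for TRIB3, the gene with the largest decrease below. Capitals mark the motif. In ASNS (chr7:97872409-97872658, minus strand) it occupies bases 183 to 190 and begins 68 bases before the start. In CHAC1 (chr15:40953221-40953470, plus strand) it lies on the opposite strand at bases 42 to 49, with its first base 209 bases before the start, so that the capitals are its reverse complement. For TRIB3 (chr20:381045-381294, plus strand) the first of 3 listed windows is shown.
ASNS: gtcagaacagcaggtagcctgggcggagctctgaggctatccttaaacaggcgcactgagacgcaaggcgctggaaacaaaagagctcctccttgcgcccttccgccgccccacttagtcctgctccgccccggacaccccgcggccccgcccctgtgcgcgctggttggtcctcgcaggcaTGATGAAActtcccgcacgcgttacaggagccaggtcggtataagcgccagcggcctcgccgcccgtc
CHAC1: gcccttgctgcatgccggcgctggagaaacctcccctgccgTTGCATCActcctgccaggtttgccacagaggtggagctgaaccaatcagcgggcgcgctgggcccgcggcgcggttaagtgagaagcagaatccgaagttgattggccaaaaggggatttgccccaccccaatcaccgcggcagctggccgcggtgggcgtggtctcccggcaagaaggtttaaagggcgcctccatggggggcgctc
TRIB3: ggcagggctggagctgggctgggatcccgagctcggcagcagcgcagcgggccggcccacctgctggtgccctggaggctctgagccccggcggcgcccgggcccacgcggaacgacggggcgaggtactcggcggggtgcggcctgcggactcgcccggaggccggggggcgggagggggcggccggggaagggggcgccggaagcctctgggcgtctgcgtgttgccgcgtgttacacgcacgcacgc
A match describes letters and is not a measured binding site, and the lack of a match in TRIB3 says only that these letters are not in its windows.

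Epithelial and mesenchymal markers were examined first. CDH1 (E-cadherin), EPCAM and KRT19 fell upon EMT in all 3 lines, and CDH2 (N-cadherin), FN1 (fibronectin) and ZEB1 rose. Of 7 epithelial markers, 4 fell in A549 and 7 in each of the other lines. Of 7 mesenchymal markers, 7 rose in HCC827 and NCI-H358 and 6 in A549, where the other, ZEB2, was called lower (-0.46, adjusted p = 0.00325). Of 5 lung lineage markers, NKX2-1 was low in parental A549 (mean log2 level 3.67, against 9.18 in HCC827 and 8.62 in NCI-H358). FOXA2 was instead lowest in parental HCC827 (5.79, against 9.10 in A549 and 9.27 in NCI-H358). NAPSA was highest in parental HCC827 (10.87, against 5.91 and 6.02). Parental means of SFTPB and SFTPC lay at 5.57 to 5.84 and 6.44 to 6.56. Upon EMT, 1, 2 and 2 of the 5 were called lower in A549, HCC827 and NCI-H358, and 0 higher. Of 5 markers of blood and endothelial cells, group means ran from 2.83 to 3.18 for PTPRC, 3.97 to 4.29 for CDH5, 4.66 to 5.31 for PECAM1, 5.39 to 5.61 for CD3E and 6.101 to 6.202 for CD79A, all below the array medians that follow, and 1 was called upon EMT, PECAM1, higher in HCC827 (0.41, adjusted p = 0.024). The median level of an array was 6.31 to 6.47.

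The median deviation of the 10 genes from their group mean was 0.20 on parental NCI-H358 array 3 and -0.14 on array 1 of that group, and -0.055 to 0.051 on the other 16 arrays. Array 3 was the highest of its group for 10 of 10, whereas 30.8% of all genes were highest on it. Its excess over the mean of the other 2 arrays of the group had a median of 0.29 on the log2 scale over the 10 genes, from 0.10 for SHMT2 to 0.56 for ASNS, against a median of -0.018 over all genes. The same array was highest for 12 of 12 tRNA synthetase genes known as ATF4 targets, 2 of 8 other cytosolic tRNA synthetase genes, 23 of 30 other ATF4 targets and 14 of 20 chaperones and targets of ATF6 and XBP1. For proliferation genes it was highest in 4 of 18, for folate enzymes in 6 of 17, for genes of the methionine cycle and serine use in 8 of 19 and for eIF2 pathway genes in 5 of 14. Array 1 of the same group was below the group mean for 10 of the 10 genes and the lowest array for 8, against 33.2% of all genes. The changes upon EMT in NCI-H358 are therefore also given without array 3. Because array 3 was picked out by the values of these same genes, those results show only how far a value depends on it. Their p values are not independent tests.

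**Figure D1:**
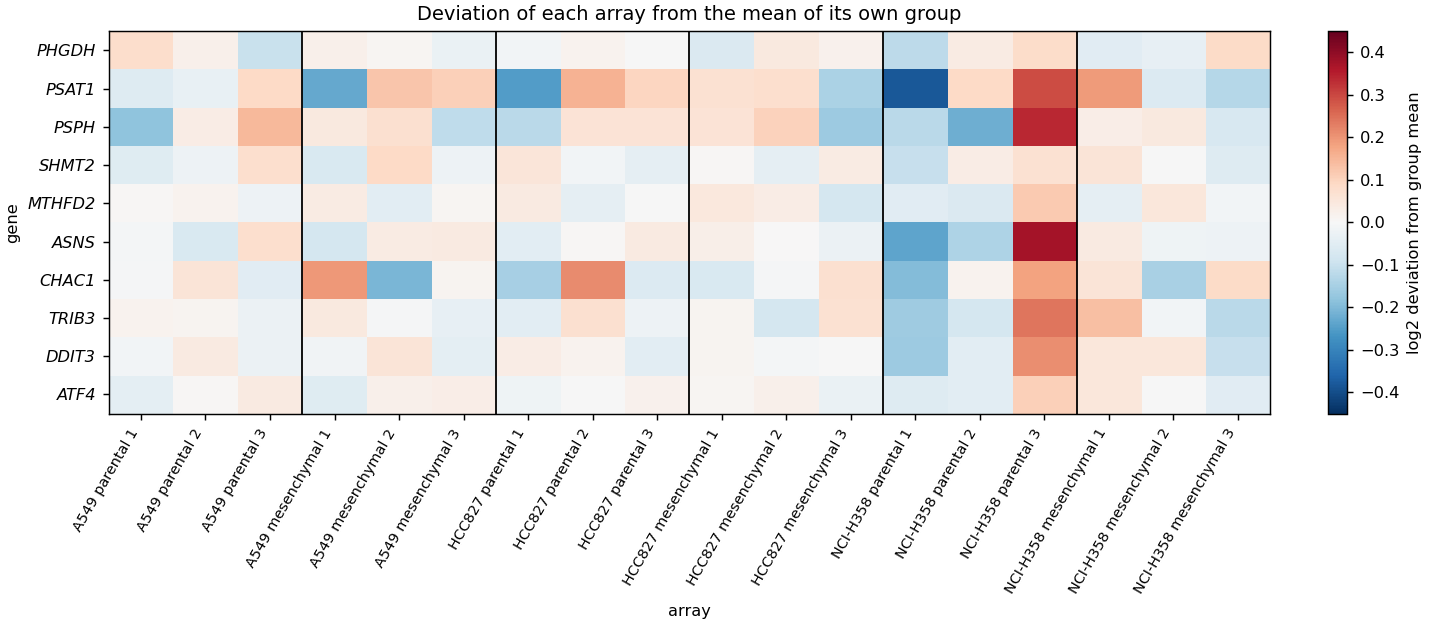
Deviation of each array from the mean of its own group on the log2 scale (colour) for the 10 genes (rows) on the 18 arrays (columns, vertical lines between groups). The column of parental NCI-H358 array 3 is red for every gene, with its deepest colours for ASNS, PSPH and PSAT1, and the column of array 1 of the same group is below 0 for every gene.

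Upon EMT, TRIB3, ASNS and MTHFD2 fell in all 3 lines, whereas PSPH, CHAC1 and ATF4 passed the test in none. Mesenchymal and parental cells were compared with limma in 1 fit of all 18 arrays, and a gene was called at a Benjamini-Hochberg adjusted p below 0.05 over all 19849 genes. In A549, 7 of the 10 genes were called, 6 lower and 1 higher, against 43.4% of all genes called and 26.8% called lower. HCC827 had 5 called, all lower, against 45.8% called and 25% called lower. NCI-H358 likewise had 5, of which 4 were lower and 1 higher, against 41.4% called and 19.8% called lower, and without parental array 3 it had 7, with PSPH and CHAC1 added. The share called was thus near the background in HCC827 and, with all arrays, in NCI-H358, and the changes were then mostly decreases. PSPH and CHAC1 were called higher without parental array 3. For NCI-H358 this gave 4 genes lower and 3 higher, with a median log2 fold change of -0.042 over the 10 genes. The 3 genes lower in every line compare with 6.14% of all genes, and the 3 called in none with 31.2%. For A549, HCC827 and NCI-H358 the median log2 fold changes of the 10 genes were -0.37, -0.20 and -0.13, beside -0.021, 0.0051 and 0.015 over all genes. All mesenchymal arrays lay below all parental arrays for 6, 6 and 4 of the 10 genes in these lines, against 31.4%, 27.4% and 24.4% of all genes, and above them for 1 gene each, against 21%, 23.8% and 27.2%.

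The decreases were moderate. Changes above 2-fold were found for 2 of the 10 genes in A549 (TRIB3 and PSAT1), 1 in HCC827 (TRIB3) and 1 in NCI-H358 (TRIB3), against 8.02%, 11.5% and 9.38% of all genes. The study asked for more than a 5-fold change with an adjusted p under 1e-05, which 0 of the 10 genes reached in any line by limma, against 1.9%, 2.95% and 2.17% of all genes. The largest change upon EMT was 3.19-fold, for TRIB3 in HCC827, so none could reach 5-fold with any p. At an unadjusted p below 0.05, 7, 5 and 6 of the 10 genes passed for the respective lines, beside 49.4%, 50.6% and 46.6% of all genes. In bulk samples, fewer cells of a type and less RNA per cell cannot be told apart.

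**Figure D2:**
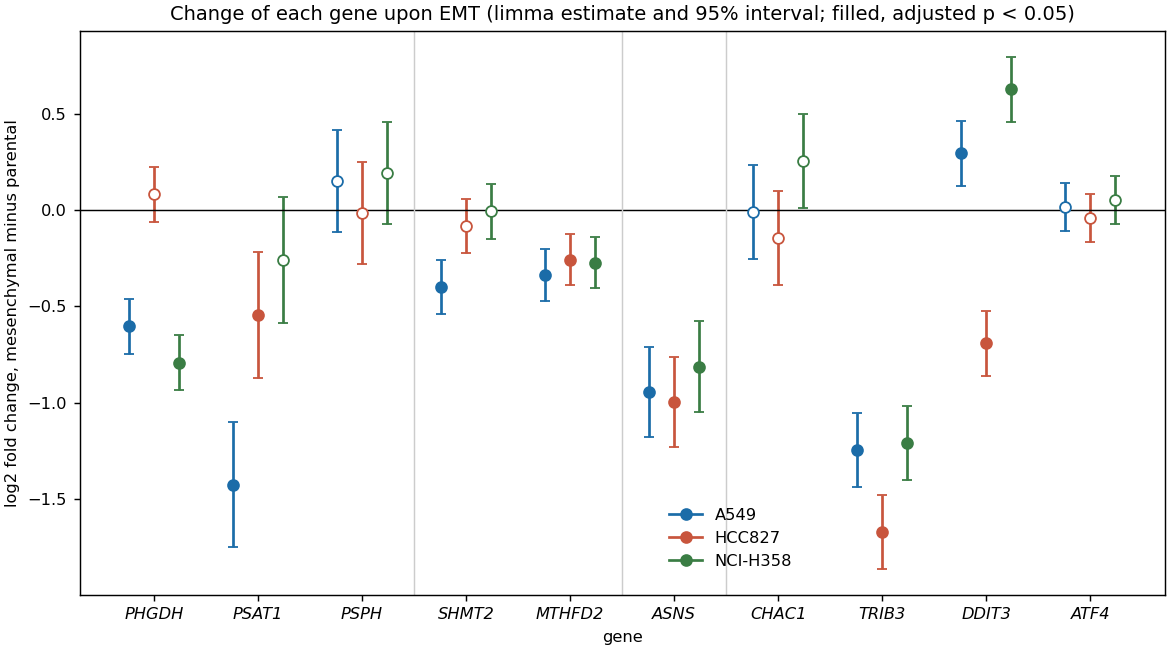
Log2 fold change of each gene, mesenchymal minus parental (vertical axis), in A549, HCC827 and NCI-H358, as the limma estimate with its 95% confidence interval from 3 arrays per group. Filled points have an adjusted p below 0.05. TRIB3 lies at -1.24, -1.67 and -1.21, DDIT3 is above 0 in A549 and NCI-H358 and below 0 in HCC827, and ATF4 lies at 0.015, -0.040 and 0.054.

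The first enzyme of serine synthesis, PHGDH (Entrez gene 26227), fell in A549 and NCI-H358 cells but not in HCC827. In A549 its log2 level was 8.86, 8.80 and 8.68 on the parental arrays and 8.20, 8.19 and 8.15 on the mesenchymal arrays. The NCI-H358 values were 9.44, 9.60 and 9.64 in parental and 8.72, 8.73 and 8.85 in mesenchymal cells. HCC827 had 8.65, 8.67 and 8.66 before and 8.68, 8.79 and 8.76 after EMT. All mesenchymal arrays thus lay below all parental arrays in A549 and NCI-H358, and in HCC827 the mesenchymal arrays were slightly the higher. The log2 fold change was -0.60 (SE 0.068, adjusted p = 1.25e-06) in A549 and -0.79 (SE 0.068, adjusted p = 3.86e-08) in NCI-H358, that is, 1.52-fold and 1.73-fold lower. Without parental array 3 the NCI-H358 value was -0.75. In HCC827 it was 0.083, with a 95% interval of -0.060 to 0.23 and an adjusted p of 0.36. The change in HCC827 differed from that in A549 by 0.69 (adjusted p = 1.59e-05) and from that in NCI-H358 by 0.88 (adjusted p = 1.39e-06).

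PSAT1 (Entrez gene 29968), the aminotransferase of the second step, had its strongest decrease in A549. There it was measured at 9.53, 9.55 and 9.68 in parental and 7.93, 8.29 and 8.27 in mesenchymal cells, 2.69-fold lower (log2 fold change -1.43, 95% interval -1.75 to -1.10, adjusted p = 7.98e-07). HCC827 gave 8.45, 8.86 and 8.80 before and 8.23, 8.24 and 8.02 after EMT, with a log2 fold change of -0.54 (SE 0.15, adjusted p = 0.00734). Both pairs of groups were free of overlap. In NCI-H358, parental values of 8.14, 8.61 and 8.82 overlapped mesenchymal values of 8.46, 8.20 and 8.14, and the change of -0.26 was not called (95% interval -0.58 to 0.067, adjusted p = 0.209). By the methods' t-test the HCC827 decrease had an adjusted p of 0.0568. Without parental array 1, the lowest of its group, the NCI-H358 value was -0.45 with an adjusted p of 0.0169, and without array 3 it was -0.11 with an adjusted p of 0.647. The decrease in A549 was larger than in HCC827 by 0.88 (adjusted p = 0.00325) and larger than in NCI-H358 by 1.17 (adjusted p = 0.000309).

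PSPH (Entrez gene 5723), the phosphatase of the last step, was not called in any line. Its log2 fold change was 0.15 in A549 (95% interval -0.11 to 0.42), -0.016 in HCC827 (-0.28 to 0.25) and 0.19 in NCI-H358 (-0.073 to 0.46). Without parental NCI-H358 array 3, which read 9.68 beside 9.21 and 9.12, the last value was 0.36 with an adjusted p of 0.0126. PSPH set the lines apart instead, with mean levels of 11.38 and 11.37 in parental and mesenchymal HCC827, 9.89 and 10.05 in A549, and 9.34 and 9.53 in NCI-H358. The lowest HCC827 array read 11.20 and the highest array of any other group 10.12, so the lines did not overlap. PSPH has a near copy, the pseudogene PSPHP1, so reads of its probe set are less certain. Of all genes, the pattern nearest to that of PSPH over the 18 arrays belonged to GOLGA8A and ERBB2IP, with root mean square differences of 0.223 and 0.228 after each gene was centred on its own mean.

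Of the mitochondrial folate enzymes, MTHFD2 fell in every line and SHMT2 in 1. SHMT2 (Entrez gene 6472) fell in A549, where its parental arrays lay at 9.19 to 9.32 and its mesenchymal arrays at 8.77 to 8.93, by a log2 fold change of -0.40 (SE 0.066, adjusted p = 9.22e-05). The change was -0.081 in HCC827 (95% interval -0.22 to 0.060, adjusted p = 0.363) and -0.0072 in NCI-H358 (-0.15 to 0.13, adjusted p = 0.951), where it was 0.028 (adjusted p = 0.825) without parental array 3. The decrease in A549 differed from the change in HCC827 by 0.32 (adjusted p = 0.0107) and from that in NCI-H358 by 0.39 (adjusted p = 0.00249). MTHFD2 (Entrez gene 10797) fell by a similar small amount in each line. Its parental arrays lay at 12.63 to 12.67 (A549), 12.22 to 12.30 (HCC827) and 12.20 to 12.38 (NCI-H358), and its mesenchymal arrays at 12.27 to 12.35, 11.92 to 12.05 and 11.95 to 12.05. The groups did not overlap in any line. The log2 fold changes were -0.34, -0.26 and -0.27 (SE 0.063 each, adjusted p = 0.00029, 0.00255 and 0.00185), the last being -0.21 with an adjusted p of 0.0126 without parental array 3. The differences of the MTHFD2 change between lines were within 95% intervals of -0.11 to 0.27, -0.12 to 0.25 and -0.20 to 0.17.

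ASNS (Entrez gene 440), which makes asparagine from aspartate and glutamine, fell by nearly 2-fold in each line. In A549 its level was 11.13, 11.07 and 11.21 in parental and 10.11, 10.23 and 10.23 in mesenchymal cells. HCC827 gave 10.71, 10.76 and 10.79 before and 9.78, 9.76 and 9.73 after EMT, and NCI-H358 10.05, 10.15 and 10.66 before and 9.51, 9.46 and 9.45 after. No mesenchymal array reached a parental array of its line. The log2 fold changes were -0.95 (SE 0.11, adjusted p = 2.09e-06), -0.997 (SE 0.11, adjusted p = 8.16e-07) and -0.81 (SE 0.11, adjusted p = 1.09e-05), or 1.93-fold, 2.00-fold and 1.76-fold lower. In NCI-H358 the parental value of 10.66 is that of array 3, and without it the change was -0.63 (adjusted p = 1.48e-06). The decrease in NCI-H358 was not called different from that in A549 (difference 0.13, 95% interval -0.20 to 0.46) or HCC827 (0.18, -0.15 to 0.52). With array 3 left out, an array picked by values that include those of ASNS, it was smaller than both, by 0.32 (adjusted p = 0.0093) and 0.37 (adjusted p = 0.00383). ASNS is the gene whose upstream bases above hold the motif nearest to the start.

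TRIB3 (Entrez gene 57761), a pseudokinase that ATF4 and DDIT3 induce and that restrains ATF4 activity, had the largest decrease of the set in HCC827 and NCI-H358 and the second largest in A549, after PSAT1. Its parental arrays read 10.01, 10.00 and 9.97 for A549, 9.97, 10.09 and 10.00 for HCC827, and 9.91, 10.00 and 10.32 for NCI-H358. The mesenchymal arrays of the same lines read 8.79, 8.74 and 8.71, then 8.36, 8.27 and 8.42, then 8.998, 8.85 and 8.74. The parental levels of the 3 lines overlapped, and every mesenchymal array was lower than every parental array, whatever the line. The fold decrease was 2.37 in A549 (95% interval 2.07 to 2.71, adjusted p = 5.77e-09), 3.19 in HCC827 (2.79 to 3.64, adjusted p = 8.62e-11) and 2.32 in NCI-H358 (2.03 to 2.65, adjusted p = 7.26e-09). Without parental array 3 the log2 fold change in NCI-H358 went from -1.21 to -1.09. Of all genes, 0.907% fell more than 2-fold in all 3 lines, and 0.574% fell in each by at least the smallest decrease of TRIB3. The decrease in HCC827 exceeded that in A549 by 0.43 on the log2 scale (adjusted p = 0.0123) and that in NCI-H358 by 0.46 (adjusted p = 0.00862). The gene with the nearest pattern, looked up after these values were seen, was FAM195A, with a root mean square difference of 0.170 over the 18 arrays and log2 fold changes of -1.16, -1.55 and -0.88.

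DDIT3 (Entrez gene 1649), which encodes the stress transcription factor CHOP, moved in opposite directions. It rose in A549 from 8.22, 8.27 and 8.21 to 8.51, 8.59 and 8.49. In NCI-H358 it rose from 8.52, 8.64 and 8.90 to 9.36, 9.37 and 9.21. The HCC827 arrays went from 9.28, 9.26 and 9.20 down to 8.57, 8.55 and 8.56. Parental and mesenchymal arrays did not overlap in any line. The log2 fold change was 0.30 (SE 0.080, adjusted p = 0.00593) in A549, -0.69 (SE 0.080, adjusted p = 1.23e-06) in HCC827 and 0.63 (SE 0.080, adjusted p = 4.81e-06) in NCI-H358, the last being 0.73 without parental array 3. HCC827 differed from A549 by -0.99 (adjusted p = 1.74e-06) and NCI-H358 from HCC827 by 1.32 (adjusted p = 7.66e-08). The larger increase in NCI-H358 than in A549, by 0.33, had an adjusted p of 0.0245 and was lost when any of 6 single arrays was left out. In A549 and NCI-H358, DDIT3 thus rose while TRIB3, a gene that DDIT3 protein is known to induce, fell.

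CHAC1 (Entrez gene 79094), an enzyme that breaks down glutathione and a sensitive ATF4 target in many cells, was read close to the array median, with group means of 6.26 to 6.85. It was not called in any line. The log2 fold change was -0.0090 in A549 (95% interval -0.25 to 0.24), -0.14 in HCC827 (-0.39 to 0.10) and 0.26 in NCI-H358 (0.010 to 0.50, adjusted p = 0.0927). The NCI-H358 value was 0.35 with an adjusted p of 0.0369 without parental array 3, and 0.29 with an adjusted p of 0.0499 when arrays were centred on their medians. A probe set this dim can understate a change.

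ATF4 (Entrez gene 468) itself was not called in any line. Its values on all 18 arrays lay between 12.04 and 12.21, and the 6 group means spanned 0.097. The log2 fold change was 0.015 in A549 (95% interval -0.11 to 0.14), -0.040 in HCC827 (-0.16 to 0.086) and 0.054 in NCI-H358 (-0.071 to 0.18), the last being 0.11 (adjusted p = 0.185) without parental array 3. With all 18 arrays, changes of ATF4 mRNA above 1.13-fold lie outside each of these intervals. The widest group was parental NCI-H358, where array 3 read 12.20 and the others 12.04 and 12.05.

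**Figure D3:**
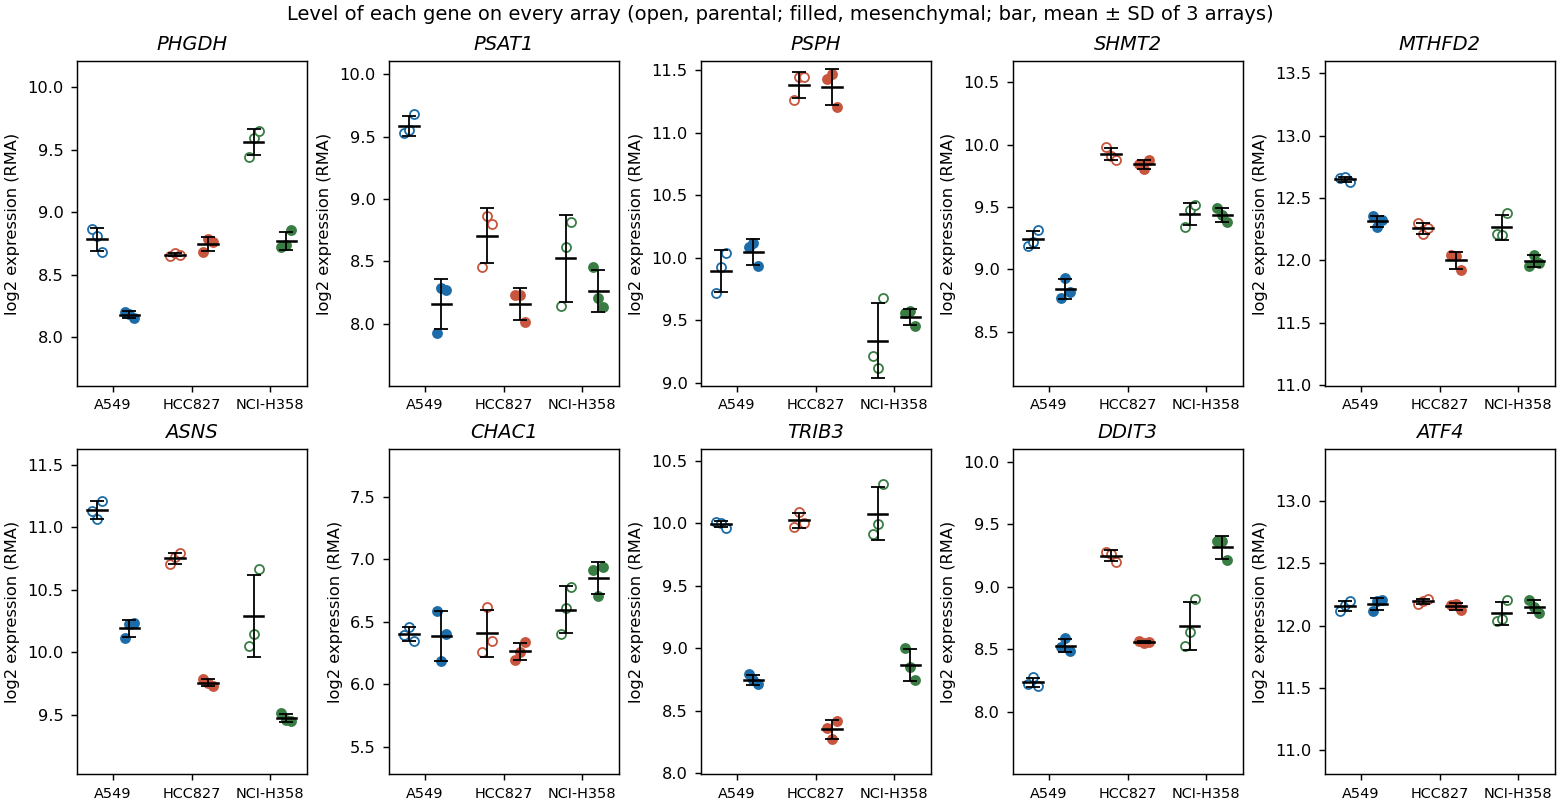
Log2 RMA level (vertical axes, of equal height in log2 units but of different range) of the 10 genes on every array, with open points for parental and filled points for mesenchymal cells of A549, HCC827 and NCI-H358, and bars for the mean ± SD of 3 arrays. TRIB3 has parental means of 9.99 to 10.08 and mesenchymal means of 8.35 to 8.86, DDIT3 crosses between lines, PSPH separates HCC827 from the others in both states, and ATF4 is flat.

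The lines also differed from each other before and after EMT. Among parental cells, 6 of the 10 genes were called between HCC827 and A549 (57.1% of all genes), 7 between NCI-H358 and A549 (57.9%) and 5 between NCI-H358 and HCC827 (52.6%). Parental A549 had the highest PSAT1, ASNS and MTHFD2, with means of 9.59, 11.14 and 12.65. HCC827 and NCI-H358 were not told apart by the test for PSAT1 (8.70 and 8.53, adjusted p = 0.366) or MTHFD2 (12.26 and 12.27, adjusted p = 0.931), while for ASNS HCC827 came second (10.75 against 10.29, adjusted p = 0.00167). Parental HCC827 had the highest SHMT2 (9.92, against 9.44 in NCI-H358 and 9.24 in A549) and the highest DDIT3 (9.25, against 8.69 and 8.23), and each step of these orders was called. PHGDH was highest in parental NCI-H358 (9.56), and A549 and HCC827 were not told apart (8.78 and 8.66, adjusted p = 0.135). TRIB3, CHAC1 and ATF4 were called between no pair of parental lines. Without parental NCI-H358 array 3, the counts for NCI-H358 were 6 against A549 and 6 against HCC827. SHMT2 was then no longer called between NCI-H358 and A549 (0.17, adjusted p = 0.0652), and ATF4 was called lower in NCI-H358 than in HCC827 (-0.15, adjusted p = 0.0465).

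After EMT the order changed for several genes. Among mesenchymal cells, 6 of the 10 were called between HCC827 and A549 (56.6% of all genes), 7 between NCI-H358 and A549 (58.8%) and 6 between NCI-H358 and HCC827 (52.6%). Mean PSAT1 levels were 8.16 for both A549 and HCC827 and 8.27 for NCI-H358, with no pair called, and the 95% interval of the difference between HCC827 and A549 was -0.33 to 0.32. The lead of A549 for PSAT1 in parental cells was therefore not seen in mesenchymal cells. For TRIB3 the reverse was found, with parental means of 9.99, 10.02 and 10.08 and mesenchymal means of 8.75, 8.35 and 8.86, in which HCC827 was called lower than A549 (adjusted p = 0.00116) and NCI-H358 (adjusted p = 0.000111). PHGDH was at 8.74 and 8.77 in mesenchymal HCC827 and NCI-H358 (adjusted p = 0.786) and lower in A549, at 8.18. DDIT3, highest in parental HCC827, was highest in mesenchymal NCI-H358 (9.31), and HCC827 and A549 met at 8.56 and 8.53 (adjusted p = 0.801). CHAC1 was called higher in mesenchymal NCI-H358 (6.85) than in A549 (6.39, adjusted p = 0.00224) and HCC827 (6.26, adjusted p = 0.000308). MTHFD2 and ASNS stayed highest in mesenchymal A549.

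By tests of the difference in the change itself, 5 of the 10 genes differed between HCC827 and A549 (42.2% of all genes), 3 between NCI-H358 and A549 (42.8%) and 3 between NCI-H358 and HCC827 (37.9%). The last count was 6 without parental NCI-H358 array 3, with ASNS, CHAC1 and PSPH added, and that between NCI-H358 and A549 was 4, with ASNS added. PSPH, MTHFD2 and ATF4 differed between no pair of lines with all 18 arrays, nor did ASNS and CHAC1. The log2 fold changes of the 3 EMT comparisons come from different arrays, but their standard errors come from the fit of all 18 arrays. For ASNS the SE was 0.11 in each line. Without parental NCI-H358 array 3, the ASNS adjusted p by limma went from 2.09e-06 to 2.93e-09 in A549. In HCC827 it went from 8.16e-07 to 1.07e-09. The 3 EMT tests are therefore not independent, and the 3 comparisons of changes also share arrays with each other.

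Few of these differences between lines were large. A difference of change above 2-fold was called for 0, 1 and 1 of the 10 genes (HCC827 against A549, NCI-H358 against A549 and NCI-H358 against HCC827), against 13.4%, 12.7% and 11% of all genes, and the genes were PSAT1 and DDIT3. Between parental lines, in the same order, a difference above 2-fold was called for 2, 1 and 1 genes, against 18.8%, 20.4% and 15.2%. These were PSPH and DDIT3, then PSAT1, then PSPH, whose 4.14-fold higher level in parental HCC827 than in parental NCI-H358 was the largest difference in the set. Between mesenchymal lines the counts were 1, 0 and 1, against 17.2%, 19.8% and 15.2%, and the gene was PSPH both times. At the thresholds of the study 0 of the 10 genes passed in each of these 9 comparisons, where 2.92%, 3.01% and 2.06% of all genes passed for the differences of change, 5.15%, 6.19% and 3.32% between parental lines and 4.51%, 5.83% and 3.47% between mesenchymal lines.

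Genes around this set were described by lists and give the setting of the same pathways. Each list count from here on is to be read beside the share of all genes called in that direction. In A549, HCC827 and NCI-H358 these shares were 26.8%, 25% and 19.8% for lower and 16.6%, 20.8% and 21.5% for higher. Among 17 enzymes of folate metabolism and glycine cleavage, 10 were lower and 1 higher in A549, 5 lower and 6 higher in HCC827, and 7 lower and 4 higher in NCI-H358 (6 and 4 without parental array 3). SHMT1, the cytosolic counterpart of SHMT2, fell in all 3 lines, with log2 fold changes of -0.84, -1.24 and -1.18 (adjusted p at most 4.65e-08). ATIC, of purine synthesis, also fell (-0.29, -0.46 and -0.17), and GGH, which trims folate polyglutamates, rose (0.34, 0.90 and 0.18). ALDH1L2, the mitochondrial enzyme that oxidizes formyl folate, rose in HCC827 (3.10, adjusted p = 5.6e-10) and NCI-H358 (1.92, adjusted p = 3.33e-07) and had -0.39 in A549 (adjusted p = 0.117). Of 19 genes of the methionine cycle, transsulphuration and serine use, 8, 6 and 4 were lower and 1, 5 and 4 higher in the 3 lines, and AHCY, which hydrolyses S-adenosylhomocysteine, was lower in each (-0.40, -0.62 and -0.84).

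Of 30 other ATF4 targets, 17 were lower and 5 higher in A549, 10 lower and 10 higher in HCC827, and 9 lower and 9 higher in NCI-H358. Of all genes, 26.8%, 25% and 19.8% were called lower and 16.6%, 20.8% and 21.5% higher in these lines. The medians of the targets were -0.41, -0.061 and 0.049. Without parental array 3 the NCI-H358 counts were 5 lower and 10 higher. Those lower in all 3 lines were GDF15, GPT2, SLC7A5, PCK2 and SLC3A2. GDF15, a secreted stress cytokine, fell the most, by log2 fold changes of -2.49, -2.57 and -3.66 (adjusted p at most 3.88e-08). SLC7A5 and SLC3A2, the light and heavy chains of a leucine transporter, had -0.57, -1.36 and -0.48, and -0.90, -0.57 and -0.22. GPT2, the mitochondrial alanine aminotransferase, had -0.51, -1.20 and -1.10, and PCK2, the mitochondrial PEP carboxykinase, -1.19, -0.77 and -0.44. In NCI-H358 the calls of SLC3A2 (-0.17, adjusted p = 0.0804) and PCK2 (-0.30, adjusted p = 0.0655) were lost without parental array 3. Other targets also changed in opposite directions between lines. DDIT4, an inhibitor of mTORC1, had -0.40, -2.67 and 1.64, and VEGFA, the angiogenic factor, 2.80, 0.53 and -0.88, and all 6 values were called. The direction of DDIT4 was that of DDIT3 in HCC827 and NCI-H358 but not in A549. For VEGFA it was that of DDIT3 in A549 but not in the other lines.

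The 12 tRNA synthetase genes known as ATF4 targets were lower in A549 for 10 and in HCC827 for 6, with 3 higher in HCC827. In NCI-H358, 1 was called, AARS, and that count was 6 with an intensity trend in the fit and 3 without parental array 3 (1 lower, 2 higher). Among 8 other cytosolic tRNA synthetase genes, 5, 2 and 1 were lower and 0, 1 and 2 higher. AARS fell in all 3 lines (-0.68, -0.44 and -0.29), as did DARS of the other group (-0.26, -0.36 and -0.36). The genes of the eIF2 kinases, eIF2, eIF2B and the eIF2 phosphatase subunit, 14 in all, had 8 lower and 0 higher in A549, 2 lower and 4 higher in HCC827, and 1 lower and 5 higher in NCI-H358, with none called in the same direction in all 3.

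Chaperones of the endoplasmic reticulum and targets of ATF6 and XBP1 were called higher more often than lower in each line. ATF6 and XBP1 belong to the other arms of the stress response of that organelle. Of 20 such genes, 13 were higher and 0 lower in A549, 10 higher and 2 lower in HCC827, and 13 higher and 1 lower in NCI-H358, with medians of 0.32, 0.23 and 0.37 and with 16.6%, 20.8% and 21.5% of all genes called higher. In all 3 lines 5 of the 20 genes rose, against 4.31% of all genes. HSPA5, the chaperone BiP, rose by 0.61, 0.57 and 0.80 (adjusted p at most 2.3e-05), CRELD2 by 0.45, 0.83 and 0.71, HYOU1 by 0.40, 0.81 and 0.53, and CALR and DNAJB11 were the others. Without parental array 3 the NCI-H358 counts of the list were 12 higher and 1 lower. TRIB3 and ASNS thus fell in the same cells in which HSPA5 rose, whereas DDIT3 rose with HSPA5 in A549 and NCI-H358. Of the 30 other ATF4 targets, 17 were lower and 5 higher in A549, and as many were higher as lower in HCC827 and NCI-H358. That balance in NCI-H358 became 5 lower and 10 higher without parental array 3.

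Proliferation and S phase genes differed between lines. Of 18, 17 were lower and 0 higher in A549 (median -0.78), 12 higher and 0 lower in HCC827 (median 0.46), and 12 lower and 0 higher in NCI-H358 (median -0.43). Their mean level per array went from 10.49 to 10.54 down to 9.73 to 9.78 in A549, from 9.48 to 9.77 up to 10.18 to 10.22 in HCC827, and from 10.08 to 10.21 down to 9.75 to 9.77 in NCI-H358. PHGDH was called lower in the lines where these genes were lower, and TRIB3, ASNS and MTHFD2 fell also in HCC827, where they were higher. The paper states that TGFβ-treated cells grew more slowly than parental cells and names no exception for HCC827. The labels give no growth rate of the samples, so higher mRNA of these genes in mesenchymal HCC827 cannot be read as faster growth. The part of proliferation in the changes of the 10 genes was not tested.

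**Figure D4:**
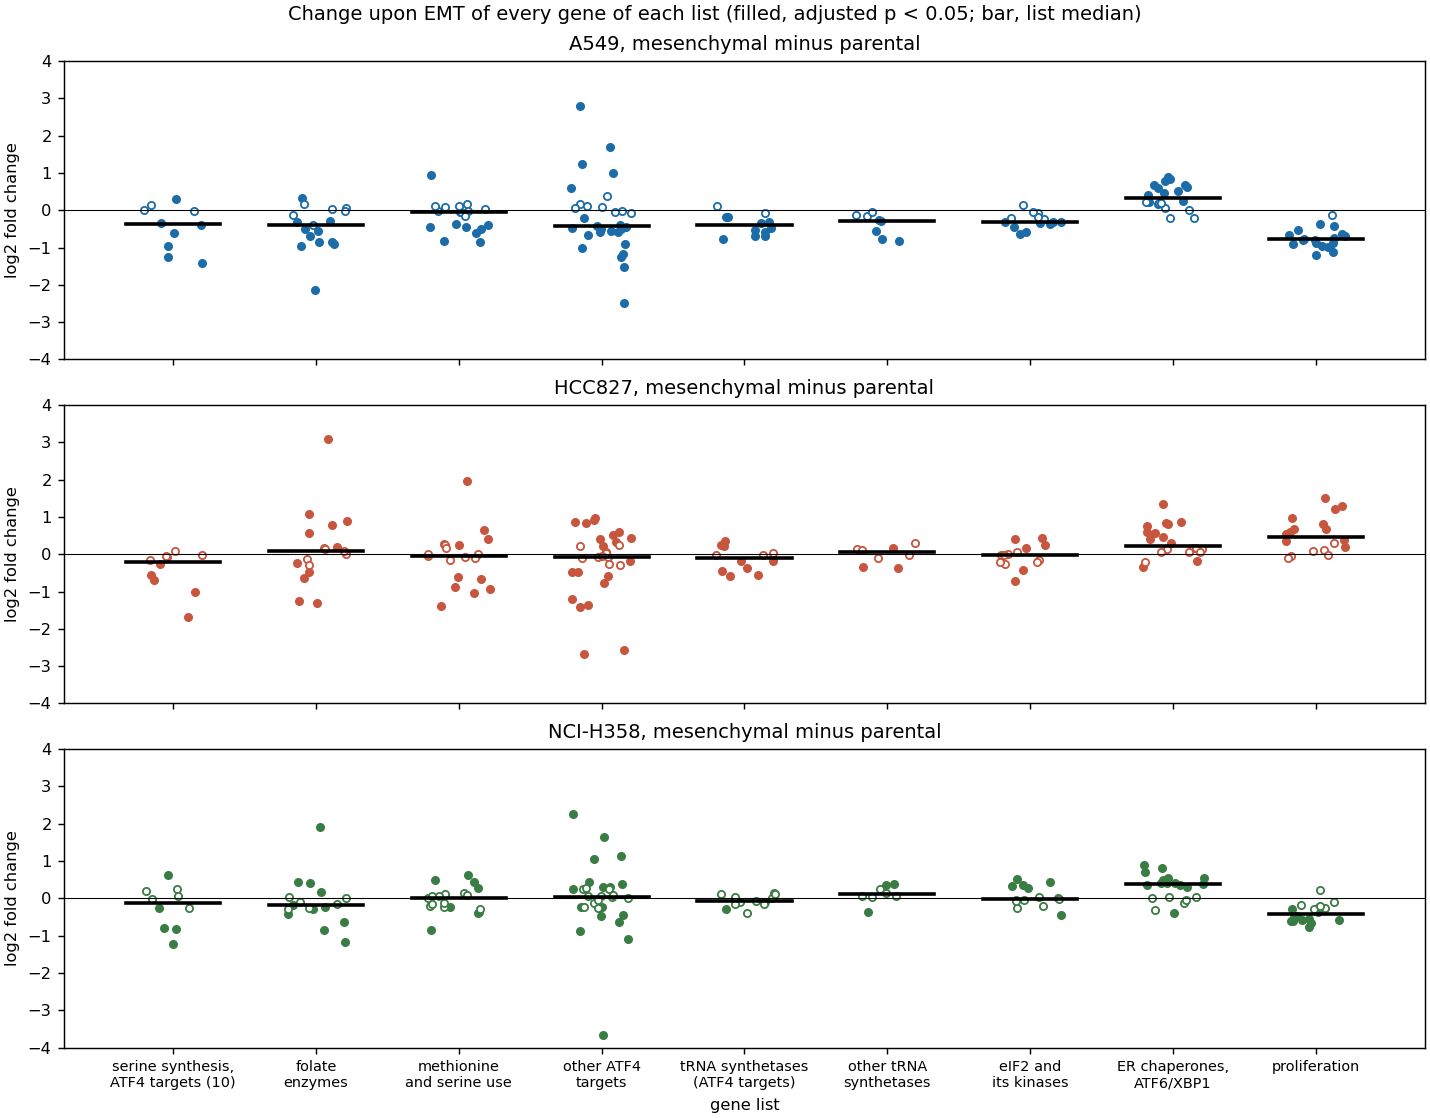
Log2 fold change upon EMT (vertical axes) of each gene of 9 lists in A549, HCC827 and NCI-H358 (panels), with filled points for an adjusted p below 0.05 and bars for list medians. The medians of the 10 genes are -0.37, -0.20 and -0.13, those of the chaperone list 0.32, 0.23 and 0.37, and those of the proliferation list -0.78, 0.46 and -0.43.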

How the data were processed

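Total RNA of the 18 samples was hybridized to Affymetrix U133 Plus 2.0 arrays. The deposited values are log2 signals made by the authors with RMA, 1 probe set per gene. The rule for choosing that probe set, the annotation version and the software version are not given in the sources used here. RMA equalizes the distribution of signal between arrays, so a change common to all genes would not be seen, and probe sets differ in affinity, so levels of different genes are not compared. The probe sets of PSAT1, ASNS and SHMT2 are of the type that can match several transcripts.

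Groups were taken from the labels, which give no batch and no replicate numbers, and arrays were numbered in order of accession. The 12 contrasts (EMT against parental in each line, differences of that change between lines, and lines within each state) were fitted with limma 3.58.1 in R 4.3.3 over all 18 arrays with 6 group means, and p values were adjusted over 19849 genes. With 3 arrays in each of 2 groups, the smallest two-sided p of an exact permutation test is 0.1. No 2 arrays held the same values, and the standard deviation of log2 differences between arrays of a group was 0.163 to 0.282. In simulated data on the A549 comparison, 197 of 200 genes changed 2-fold among 19849 were recovered, with 10 false calls. The simulated noise was independent between genes, and no other gene changed in any group. These figures therefore check the fit and do not give the error rate of the calls above. Arrays have no depth, and their number limits the precision.

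The genes and lists were chosen with earlier results of these data known. The text names the 10 genes, list genes called in the same direction in all 3 lines (of those, the 3 with the largest mean change, others by exception where a count of 5 or fewer is named) and list genes past the study's thresholds in a line. For genes whose group means span at least 2 log2 units, it also names the 2 nearest patterns. Of 19849 gene IDs, 19326 were matched to RefSeq. The list of folate genes had 17 of 18 members in the table. Alternatives were a separate fit per contrast, eBayes with a trend on intensity, leaving out dim probe sets (kept at log2 above 5 on at least 3 arrays), median-centred arrays, the methods' t-test, other thresholds and each array left out.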

Additional observations from a re-analysis of the deposited data

Results flagged for a closer look

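The changes upon EMT of 5 genes differed between lines, as tested with limma on the difference itself. The change in HCC827 minus that in A549 was 0.69 for PHGDH, 0.88 for PSAT1, 0.32 for SHMT2, -0.43 for TRIB3 and -0.99 for DDIT3. That in NCI-H358 minus that in A549 was 1.17 for PSAT1, 0.39 for SHMT2 and 0.33 for DDIT3, all on the log2 scale. That in NCI-H358 minus that in HCC827 was -0.88 for PHGDH, 0.46 for TRIB3 and 1.32 for DDIT3. These were tested because the contrasts compare the same treatment in different lines. They count 5, 3 and 3 of the 10 genes beside 42.2%, 42.8% and 37.9% of all genes. The value of 0.33 for DDIT3 had an adjusted p of 0.0245, and from 0.055 to 0.0719 without any of 6 arrays.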

How the results depend on the processing

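Of 30 member changes upon EMT and 30 differences of change between lines, none that was called with all arrays or under an alternative changed sign. The sign of 5 changes and 3 differences that were not called turned under some alternative, with values of at most 0.0938 in size and adjusted p of at least 0.584. They were ATF4 and CHAC1 in A549, ATF4 and PSPH in HCC827, SHMT2 in NCI-H358, and the differences of TRIB3 and PSPH between NCI-H358 and A549 and of MTHFD2 between NCI-H358 and HCC827. With a fold change above 2 required, the counts of the 10 genes were 2, 1 and 1 for EMT in A549, HCC827 and NCI-H358, and 0, 1 and 1 for the differences of change (HCC827 against A549, NCI-H358 against A549, NCI-H358 against HCC827). In the same order of lines they were 2, 1 and 1 between parental cells and 1, 0 and 1 between mesenchymal cells. At the study's thresholds all 12 counts were 0. Leaving out single arrays, the EMT counts were 7 to 7, 5 to 5 and 5 to 7, those of differences 5 to 5, 2 to 4 and 3 to 6, those between parental cells 6 to 6, 6 to 8 and 5 to 6, and those between mesenchymal cells 6 to 6, 7 to 7 and 5 to 6. The 6 arose without parental NCI-H358 array 3. With the other settings, 148 changes of members kept their side of the threshold, the 2 exceptions being PSAT1 in HCC827 by the methods' t-test and CHAC1 in NCI-H358 with median-centred arrays, and all 120 differences did. Of the 148, 4 that were not called changed sign with median-centred arrays. Leaving out an array brought 3 changes and 8 differences past the threshold and 6 below it, all 6 of DDIT3 between NCI-H358 and A549. No paired analysis was possible because the labels give no replicate numbers. The cause of these dependences was not tested. With 3 arrays per group and 1 probe set per gene, small changes of dim genes such as CHAC1 are the least certain.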
